A study of Nicotiana tabacum with 9 samples.

Results

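Pollen tubes of Nicotiana tabacum that had grown for 3 h at room temperature (RT) and then for 3 h at 37°C (HS 3 + 3 h) were compared with tubes that had grown for 6 h at RT (RT 6 h). Both groups were therefore of the same age and differed in the temperature of their last 3 h. Each group comprised 3 libraries, so 6 of the 9 libraries of the study entered the comparison, and the 3 libraries made after 3 h of RT growth alone (RT 3 h) entered no test and are only given beside some genes. Pollen of the cultivar Samsun-NN was pooled from several plants and germinated on a cellophane sheet over solid medium, and the groups differed in no allele and no added agent. The sources used here do not say if the 3 samples of a group derive from 3 pools of pollen, so the p-values measure the spread between these samples, which may be technical. A gene was tested when its counts, scaled to a library size of 1e6 (CPM), exceeded 0.5 in 2 or more libraries of the 6, which gave 23053 of the 74044 genes in the count tables.

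Plant cells that are heated produce heat shock proteins, chaperones that hold unfolding proteins, refold them or pull aggregates apart. Their genes are switched on by heat shock factors (HSFs), transcription factors that are kept inactive by chaperones until these are drawn away by misfolded proteins. Class A HSFs activate transcription and class B HSFs act mostly as repressors or coregulators. Proteins that misfold in the endoplasmic reticulum (ER) call on a separate set of ER chaperones and on a pathway that extracts and degrades them. A pollen tube is the fast-growing outgrowth of the vegetative cell of the pollen grain, carries the sperm cells to the ovule, and extends by delivering membrane and wall material to its tip.

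The HS 3 + 3 h libraries held 14931693, 24228800 and 24514332 counts and the RT 6 h libraries 23393816, 26511864 and 25574086 counts, and HS replicate 1 was the shallowest of them. The tissue was checked with a list of 21 genes of green tissue, of which 8 had no count in any of the 6 libraries and 2 passed the filter. One of these, a carbonic anhydrase gene (LOC107768773), had 252, 253 and 255 CPM under HS and 257, 259 and 255 CPM at RT 6 h (log2FC = -0.02). The other, FNR (LOC107825625), had 3.94, 4.68 and 4.86 CPM under HS and 6.48, 7.01 and 7.26 CPM at RT 6 h (log2FC = -0.60, not called), so that its groups did not overlap. The pollen-specific gene ntp302 (LOC107773574) had 21784, 22321 and 23142 CPM under HS and 20598, 22340.3 and 21466 CPM at RT 6 h (log2FC = 0.06, which turned to -0.09 when libraries were scaled by their totals alone), so that its groups overlapped.

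Heat changed many genes strongly, and rises were more frequent and larger than falls. A gene was called upregulated or downregulated past an absolute log2 fold change (log2FC) of 1 and a false discovery rate (FDR, Benjamini-Hochberg over all 23053 genes) of at most 0.005 in edgeR's quasi-likelihood test, with a positive log2FC meaning higher under HS. By this rule 1438 genes (6.24%) were upregulated and 661 (2.87%) downregulated, together 2099 (9.11%). Because RNA was extracted from whole tubes, fewer cells of a type and less RNA per cell cannot be told apart. Another 5250 genes passed the FDR limit within a 2-fold change. The median log2FC over all genes was 0.01, that of the upregulated genes 1.71 and that of the downregulated genes -1.29. By the fitted log2FC, changes of more than 16-fold were found for 238 of the upregulated and 3 of the downregulated genes, and of more than 100-fold for 109 upregulated and 0 downregulated genes. With genes at or under 3 counts in every library of the lower group set at the lowest fold this allows, 175 upregulated and 0 downregulated genes passed 16-fold and 63 upregulated genes 100-fold, while both medians stayed at 1.71 and -1.29. When libraries were scaled by their totals alone, all log2FCs shifted by -0.15 in the median, and 1170 genes were upregulated and 1070 downregulated, so that upregulated genes were 52.2% of the calls instead of 68.5%.

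Most upregulated genes had low levels at RT. Of the 1438, 895 (62.2%) averaged under 1 CPM at RT 6 h, and for 155 no RT 6 h library held more than 3 counts. These 155 genes entered the test only because of their level under HS, so that they had to differ. The upregulated genes had a median level of 2.71 CPM under HS and 0.632 CPM at RT 6 h. Over all genes tested, the medians were 2.64 CPM under HS and 2.55 CPM at RT 6 h. Together the upregulated genes took 2.26 ± 0.0305% of all counts under HS and 0.592 ± 0.0136% at RT 6 h (SD, n = 3 each). The downregulated genes took 0.322 ± 0.00236% of the counts under HS and 0.865 ± 0.0233% at RT 6 h. HS and RT 6 h libraries did not overlap in 1430 of the upregulated and 651 of the downregulated genes, where over all genes tested the HS libraries were all above those of RT 6 h in 26.2% and all below in 24.1%.

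**Figure D1:**
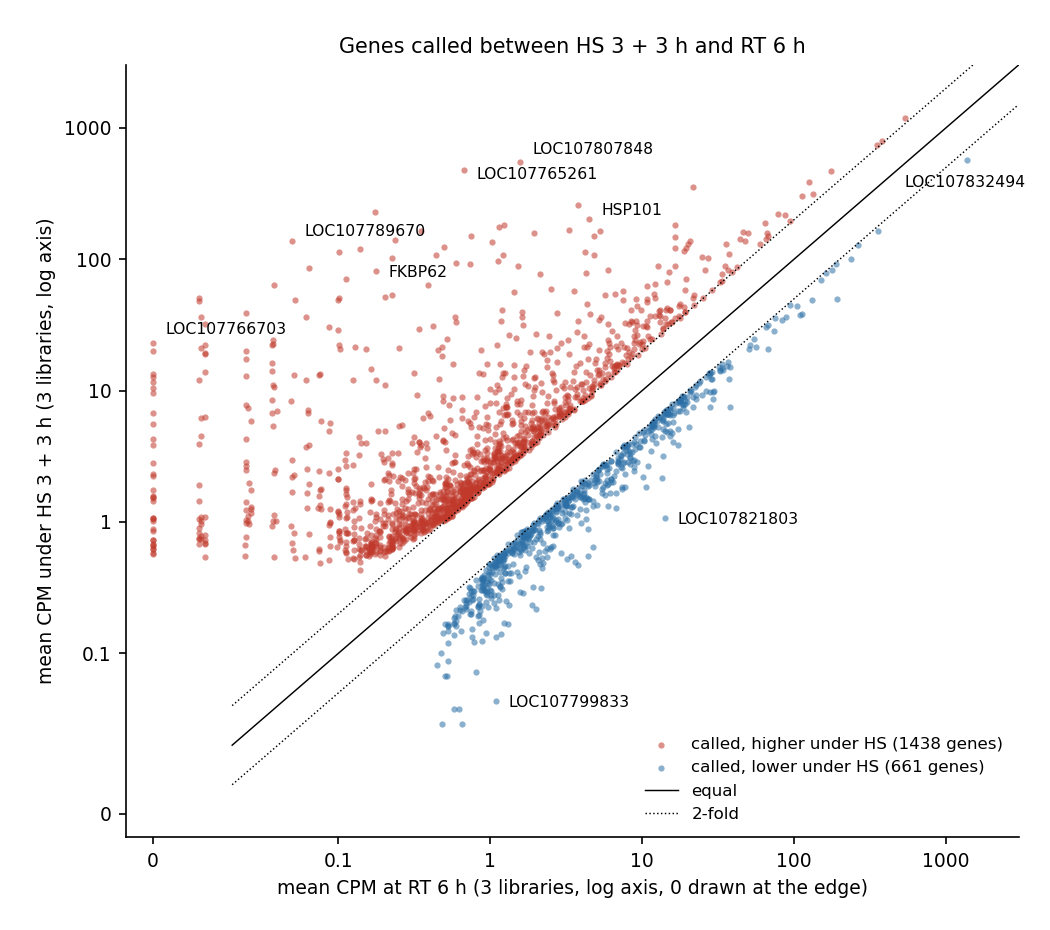
Mean CPM of the 3 HS 3 + 3 h libraries (vertical axis) against that of the 3 RT 6 h libraries (horizontal axis) for the 1438 upregulated (red) and 661 downregulated (blue) genes, both axes logarithmic with 0 drawn at the edge. The solid line marks equal values and the dotted lines a 2-fold change, and the upregulated genes reach much farther from them than the downregulated genes, above all at the left, where the level at RT 6 h is near 0.

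The largest upregulations by fitted log2FC were those of 8 genes that had at most 2 counts in any RT 6 h library. For genes at or under a floor of 3 counts per library, fold changes are given as bounds against that floor, which is 0.113 CPM at RT 6 h and covers counting error only. LOC107789670 had 135, 147 and 134 CPM under HS and 0.0397, 0.0726 and 0.0372 CPM at RT 6 h. Its level under HS was at least 1223-fold higher (log2FC = 11.28, FDR = 2.88e-78). LOC107769142 had 50.7, 54.5 and 47.1 CPM under HS and 0, 0.0363 and 0 CPM at RT 6 h, which is at least 448-fold higher. LOC107815628 had 47.96, 49.2 and 47.8 CPM under HS and 0, 0.0363 and 0 CPM at RT 6 h and was at least 427-fold higher. Genes were ranked here only if their groups did not overlap, and these 8 passed the filter only through their HS libraries. The gap between their groups is therefore no separate evidence. The rest of the 8 were LOC107766703, LOC107764378, LOC107783869, LOC107770077 and LOC107832103, with 0 counts in each RT 6 h library and bounds of at least 204-, 176-, 118-, 111- and 102-fold.

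All of these 8 genes consist of 1 exon block in the TN90 annotation that was deposited with the counts, and 7 of the 8 have between 621 and 925 exonic bases. Genes with 1 exon block were 26.5% (63 of 238) of those upregulated more than 16-fold by the fitted log2FC, 9.25% of the other upregulated genes, 11.6% of the downregulated genes and 6.97% of all genes tested. Among genes at up to 0.1 CPM at RT 6 h, which passed the filter only through their HS libraries, they were 27.8% (47 of 169) of the upregulated genes, and among genes at 0.1 to 1 CPM 11.8% of the upregulated and 7.36% of the genes not called. One of the 8, LOC107766703 (TN90 scaffold NW_015886843.1 from 7225 to 7845), is given by the study as a homolog of the Arabidopsis gene AT3G10020, a protein of unknown function. It had 22.99, 24.9 and 21.4 CPM under HS and 0 counts in each RT 6 h library. A second homolog of AT3G10020, LOC107759427, had 12.7, 14.2 and 12.5 CPM under HS and 0.0795, 0.0363 and 0.0372 CPM at RT 6 h, a difference of at least 116-fold (FDR = 4.09e-47). LOC107764378 is annotated as a pseudogene in the K326 tobacco assembly. The other 6 have no name in the sources used here, as was the case for 1194 of the 1438 upregulated genes.

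Among the upregulated genes, 55 averaged over 100 CPM under HS, and the largest gains in CPM had a different profile. CPM values are not corrected for gene length, so levels are compared between groups and not between genes. LOC107765261 had 458, 485 and 477 CPM under HS and 0.715, 0.581 and 0.707 CPM at RT 6 h (log2FC = 9.46 ± 0.08, SE, FDR = 1.93e-88). LOC107807848 had 521, 565 and 551 CPM under HS and 1.63, 1.53 and 1.53 CPM at RT 6 h (log2FC = 8.45 ± 0.08, FDR = 1.93e-88). These 2 genes, without a name in the sources used here, have 3 exon blocks each and 2439 and 2442 exonic bases. LOC107803414 had 338, 369 and 358 CPM under HS and 24.5, 20.5 and 19.6 CPM at RT 6 h (log2FC = 4.05). The remaining 5 of the 8 largest gains came from genes that were already well transcribed at RT and were between 2.08 and 3.08 times as high under HS, with LOC107810203 at 1133, 1252 and 1207 CPM under HS and 522, 498 and 593 CPM at RT 6 h as an example. Of these, LOC107828667 and LOC107814063 (log2FC = 1.06 and 1.06) missed the log2FC limit when libraries were scaled by their totals, and LOC107814063 also without RT 6 h replicate 3.

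Most chaperones and co-chaperones with a tobacco name rose. Of 14 on the list, 12 were tested, 9 of them were upregulated and 0 downregulated, with a median log2FC of 2.18 against 0.01 over all genes. The shares over all genes tested were 6.24% upregulated and 2.87% downregulated. The summed CPM of the list was 701 ± 34.5 under HS and 85.7 ± 10.5 at RT 6 h (SD, n = 3 each). HSP101 (LOC107799003), a ring-shaped ATPase that pulls proteins out of aggregates, had 186, 209 and 208 CPM under HS and 4.77, 4.504 and 4.204 CPM at RT 6 h (log2FC = 5.49 ± 0.07, FDR = 7.20e-77). FKBP62 (LOC107824095), a peptidyl-prolyl isomerase that works with HSP90, had 78.6, 82.9 and 83.7 CPM under HS and 0.199, 0.109 and 0.223 CPM at RT 6 h (log2FC = 8.82 ± 0.13, FDR = 1.31e-72). The small heat shock protein gene Nthsp26a (LOC107764596) had 4.29, 7.24 and 6.08 CPM under HS and 0.0795, 0 and 0 CPM at RT 6 h, a difference of at least 51.8-fold. The groups lay far apart in all 3 genes. Replicates varied little in both groups for HSP101 and under HS for FKBP62, whose RT 6 h values ranged from 0.109 to 0.223 CPM.

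Genes of the HSP70 system were part of this list. HSP70 binds stretches of unfolded protein, and J-domain proteins deliver substrates to it. HSP70-3 (LOC107766295) had 82.3, 94.5 and 87.6 CPM under HS and 13.4, 12.9 and 11.6 CPM at RT 6 h (log2FC = 2.81), and NtHsp70 (LOC107795135) had 123, 142 and 145 CPM under HS and 55.4, 46.5 and 39.9 CPM at RT 6 h (log2FC = 1.54). The J-domain gene dnaJ (LOC107763704) had 158, 162 and 158 CPM under HS and 1.91, 1.598 and 2.31 CPM at RT 6 h (log2FC = 6.36, FDR = 4.31e-77). The 3 other called J-domain genes, named for proteins that bind viral coat or movement proteins (CPIP2a, CPIP2b and NtMPIP1), had means between 1.097 and 2.15 CPM under HS and between 0.0124 and 0.720 CPM at RT 6 h, with a difference of at least 9.68-fold for CPIP2a (LOC107759603) and log2FCs of 1.53 and 1.54 for CPIP2b and NtMPIP1. The 3 members that were not called were hsp90 (LOC107770659), which had 23.1, 21.4 and 23.1 CPM under HS and 19.03, 15.7 and 16.1 CPM at RT 6 h (log2FC = 0.41, FDR = 1.66e-06), GrpE1 (log2FC = 0.62) and CPIP1 (log2FC = -0.67).

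**Figure D2:**
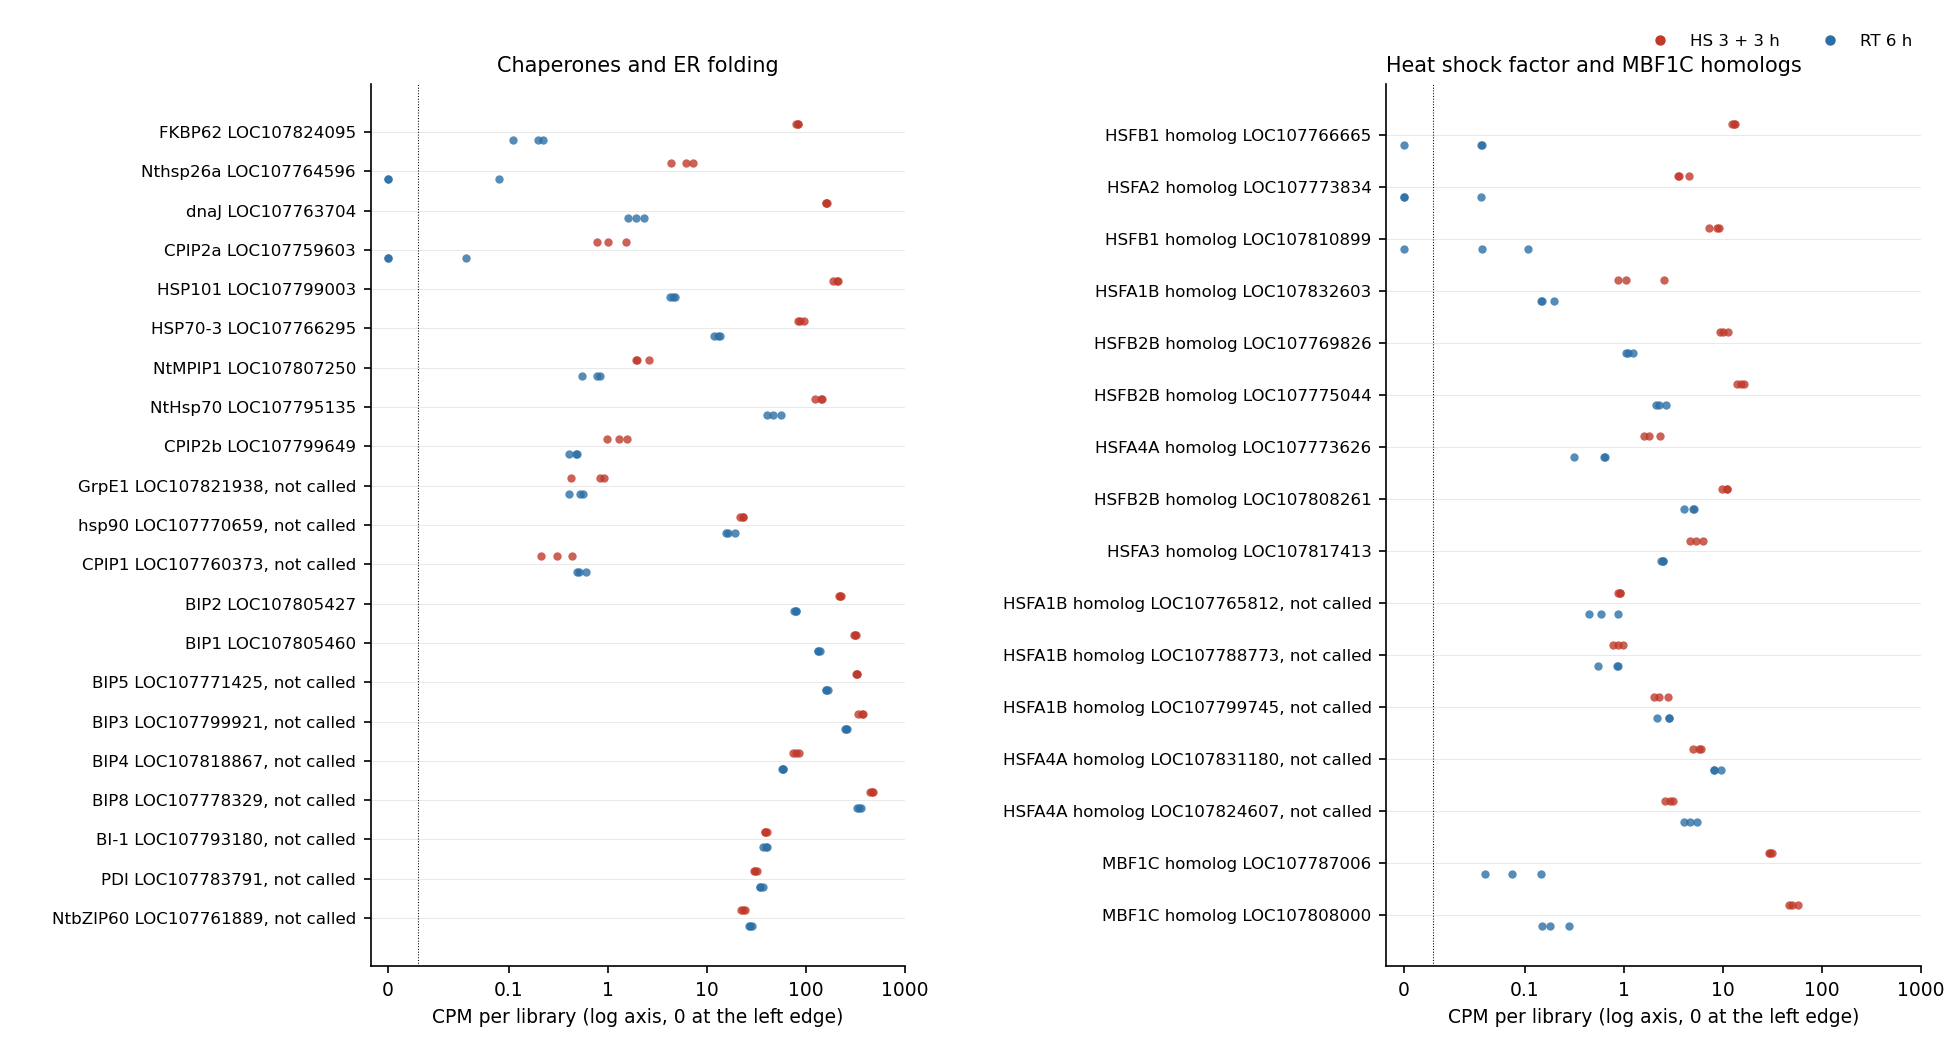
CPM in each library of HS 3 + 3 h (red, upper point row of each gene) and RT 6 h (blue, lower row) for named chaperone and ER folding genes (left) and for homologs of heat shock factors and of MBF1C (right), on a logarithmic axis with 0 left of the dotted line. The separation is widest for FKBP62 (81.7 against 0.177 CPM in the mean) and for the HSFB1, HSFA2 and MBF1C homologs, and for the BIP genes the red points lie just right of the blue ones.

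Heat shock factor genes were upregulated or not called. Of 19 genes in the study's HSF family that were tested, 9 were upregulated and 0 downregulated, with a median log2FC of 0.73. For comparison, 108 of 1319 genes of all transcriptional regulator families were upregulated and 38 downregulated, with a median of 0.06. In the following, tobacco genes are named by the Arabidopsis homolog that the study's supplementary tables give, and these homologs were picked after their values were seen. Of the HSFB1 homologs, LOC107766665 had 13.4, 12.97 and 12.3 CPM under HS and 0, 0.0363 and 0.0372 CPM at RT 6 h, a difference of at least 114-fold (FDR = 4.57e-47). The other, NtHSF1 (LOC107810899), had 7.24, 9.15 and 8.73 CPM under HS and 0, 0.109 and 0.0372 CPM at RT 6 h, a difference of at least 73.9-fold. The HSFA2 homolog LOC107773834 had 3.59, 4.55 and 3.52 CPM under HS and 0, 0.0363 and 0 CPM at RT 6 h, a difference of at least 34.3-fold (FDR = 6.93e-29). HSFA2 is a class A factor that prolongs the heat response in Arabidopsis, and no RT 6 h library of these 3 genes held more than 3 counts.

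The 3 HSFB2B homologs, LOC107769826, LOC107775044 and LOC107808261, were upregulated with log2FCs of 3.16, 2.68 and 1.17, and the single HSFA3 homolog LOC107817413 with a log2FC of 1.13, which fell under the limit without TMM scaling. Homologs of the constitutive activator HSFA1B did not move together. LOC107832603 had 1.05, 2.56 and 0.868 CPM under HS and 0.199, 0.145 and 0.149 CPM at RT 6 h (log2FC = 3.20), and the other 3 had log2FCs between -0.19 and 0.48 and were not called. One of the 3 HSFA4A homologs rose (LOC107773626, log2FC = 1.78), whereas NtHSF2 (LOC107831180) had 5.06, 5.81 and 6.03 CPM under HS and 8.18, 9.697 and 8.11 CPM at RT 6 h (log2FC = -0.60) and LOC107824607 a log2FC of -0.72, and neither passed the fold limit.

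MBF1C is a transcriptional coactivator that Arabidopsis needs for thermotolerance. Its homolog LOC107787006 had 29.2, 30.1 and 31.7 CPM under HS and 0.0397, 0.145 and 0.0744 CPM at RT 6 h (log2FC = 8.35 ± 0.18, FDR = 1.84e-59), and LOC107808000 had 46.8, 50.01 and 58.1 CPM under HS and 0.278, 0.182 and 0.149 CPM at RT 6 h (log2FC = 7.98 ± 0.14, FDR = 6.17e-65). In both genes every HS library lay more than 100 times above every RT 6 h library. The other 5 MBF1 genes tested, homologs of AT3G58680, had log2FCs between -0.53 and -0.23 and were not called. All 5 homologs of DREB2C, a regulator of the AP2/ERF family linked to heat and drought, were upregulated, with log2FCs between 1.00 and 1.35. Of these, LOC107784884 and LOC107797978 lost the call when libraries were scaled by their totals and when single libraries were left out.

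Co-chaperones that assist HSP90 or act in organelles rose in part of their copies. P23-1 is a co-chaperone of HSP90, and LOC107767457 had 25.9, 28.1 and 26.2 CPM under HS and 1.59, 2.29 and 2.08 CPM at RT 6 h (log2FC = 3.74, FDR = 5.21e-50). The second P23-1 homolog, LOC107793601, had 25.5, 27.3 and 24.8 CPM under HS and 2.34, 2.51 and 2.46 CPM at RT 6 h (log2FC = 3.41). The other P23-1 homologs, LOC107785174 and LOC107794812, had log2FCs of 0.52 and 0.28 and were not called. Of the homologs of SGT1B and of the phosphatase PP5, which both bind HSP90, 1 of 2 each was upregulated with a log2FC of 1.16, and the PP5 call was lost without HS replicate 3. Homologs of the plastid co-chaperonin CPN20 were upregulated in 3 of 4 cases but stayed under 1 CPM in every HS library. In contrast, J20, a plastid J-domain protein, had 2 of 3 homologs downregulated, LOC107808030 with 2.602, 2.99 and 2.87 CPM under HS and 7.19, 7.3 and 6.25 CPM at RT 6 h (log2FC = -1.28) and LOC107808024 with a log2FC of -1.05, a call lost without HS replicate 3.

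Some ER folding genes passed the fold limit. Of 9 genes on the ER folding list, all of them tested, 2 were upregulated and 0 downregulated. Over all genes tested, 6.24% were upregulated and 2.87% downregulated. The median log2FC of the list was 0.44, against 0.01 over all genes. BIP2 (LOC107805427), an HSP70 of the ER lumen, had 216, 225 and 223 CPM under HS and 75.4, 78.3 and 79.8 CPM at RT 6 h (log2FC = 1.51 ± 0.05, FDR = 3.86e-47). BIP1 (LOC107805460) had 306, 309.9 and 319 CPM under HS and 131, 131 and 139 CPM at RT 6 h (log2FC = 1.22 ± 0.04). BIP5 (LOC107771425) had 321, 329 and 325 CPM under HS and 161, 160.4 and 168 CPM at RT 6 h, and its log2FC of 0.996 was just under the limit. BIP3, BIP4 and BIP8 had log2FCs of 0.51, 0.44 and 0.42, with HS libraries above RT 6 h libraries in each. These BIP genes are close relatives, and the sources used here do not say how reads with several alignments were counted, so their single values are uncertain. The summed level of the list was 1850 ± 52.8 CPM under HS and 1130.0 ± 10.3 CPM at RT 6 h (SD, n = 3 each). NtbZIP60 (LOC107761889), a transcription factor of the unfolded protein response, had a log2FC of -0.24 and the protein disulfide isomerase PDI (LOC107783791) one of -0.18, and neither was called.

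Homologs of a gene for the degradation of ER proteins were all upregulated. DER1 is a membrane protein of the channel through which misfolded proteins leave the ER, and the log2FCs of its 5 tobacco homologs lay between 1.05 and 4.33. LOC107820442 had 22.4, 24.3 and 20.1 CPM under HS and 1.43, 1.02 and 0.893 CPM at RT 6 h (log2FC = 4.33, FDR = 1.05e-48). LOC107779966 and LOC107820759 had log2FCs of 3.17 and 3.07, and LOC107781441 and LOC107781480 of 1.41 and 1.05. The call of LOC107781480 was lost without RT 6 h replicate 2 and with libraries scaled by their totals. The 3 homologs of HSP70-17, an HSP70-like protein of the ER, rose by nearly the same amount, with log2FCs between 1.16 and 1.28, and LOC107811763 had 80.9, 85.3 and 80.2 CPM under HS and 37.1, 35.8 and 37.1 CPM at RT 6 h.

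Genes for splicing factors were divided between copies. SR45A is a serine- and arginine-rich protein that acts in splicing, and both homologs were upregulated. LOC107801083 had 79.3, 79.3 and 78.3 CPM under HS and 4.41, 3.596 and 4.76 CPM at RT 6 h (log2FC = 4.21 ± 0.08, FDR = 6.17e-65). LOC107779600 had 91.4, 87.4 and 89.2 CPM under HS and 16.2, 14.96 and 18.2 CPM at RT 6 h (log2FC = 2.44). U2AF35B is the small subunit of the factor that recognises the end of introns, and 4 of its 8 homologs were upregulated, with log2FCs between 2.57 and 3.42, while the other 4 lay between -0.44 and 0.57 and were not called. Of 5 homologs of the glycine-rich RNA-binding protein GRP8, LOC107760024 and LOC107818946 were upregulated (log2FC = 1.82 and 1.70), with 161, 154 and 169 CPM under HS and 42.5, 46.02 and 48.8 CPM at RT 6 h for the first, and the other 3 were not called (log2FC between -0.92 and -0.20).

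**Figure D3:**
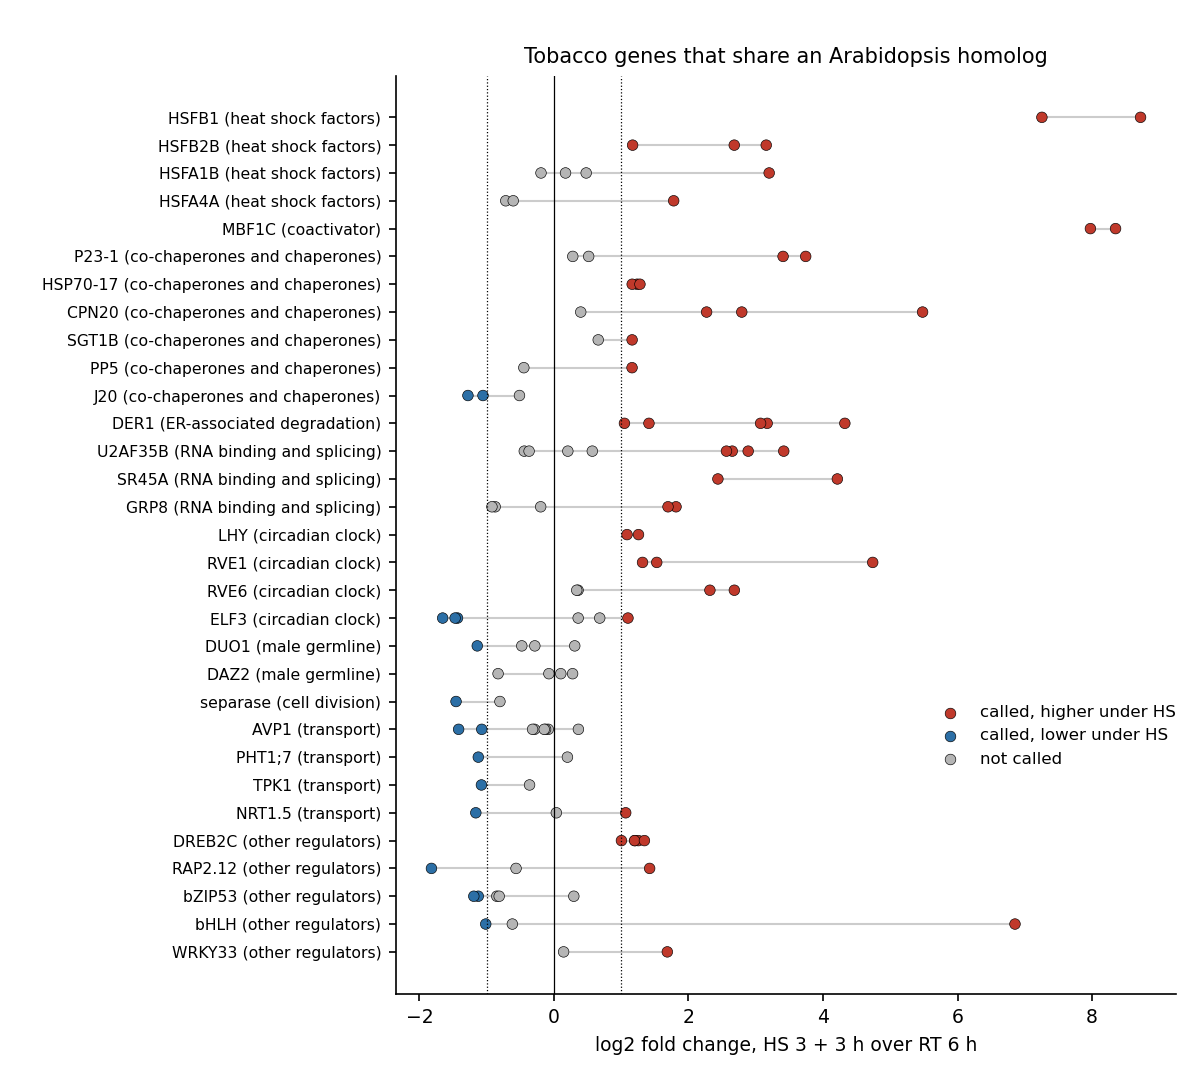
Log2 fold change of HS 3 + 3 h over RT 6 h (horizontal axis) for tobacco genes that share an Arabidopsis homolog, 1 point a gene and 1 row a homolog, with upregulated genes in red, downregulated genes in blue and genes not called in grey. Dotted lines mark the limits of 1 and -1, and the values are fitted ones, also for genes at the floor. DER1 and HSP70-17 rows lie wholly to the right, U2AF35B falls into 4 red and 4 grey points, and the ELF3, NRT1.5, RAP2.12 and bHLH rows hold both colours.

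Alternative oxidases and an ascorbate peroxidase were upregulated among the antioxidant genes. Alternative oxidase passes electrons from ubiquinone to oxygen in mitochondria and so bypasses part of the respiratory chain. Of 20 genes on the list of antioxidants, glutathione and alternative oxidase, 12 were tested, 3 were upregulated and 0 downregulated, with a median log2FC of 0.06. The shares over all genes tested were 6.24% upregulated and 2.87% downregulated. AOX2 (LOC107781761) had 105, 101.1 and 107 CPM under HS and 22.9, 25.8 and 26.1 CPM at RT 6 h (log2FC = 2.06 ± 0.06, FDR = 2.79e-51), and Aox1 (LOC107763364) had 91.8, 86.5 and 89.2 CPM under HS and 33.97, 36.1 and 35.8 CPM at RT 6 h (log2FC = 1.33). Both had lower values at RT 3 h than at RT 6 h, with 9.29, 10.03 and 9.24 CPM for AOX2 and 13.03, 13.8 and 13.5 CPM for Aox1. A homolog of AOX1a outside the list, LOC107817403, had 2.46, 2.95 and 2.996 CPM under HS and 0 counts in each RT 6 h library (at least 24.7-fold higher, FDR = 6.90e-25). The third listed gene was an ascorbate peroxidase, APX (LOC107765289), with 6.54, 6.68 and 7.34 CPM under HS and 1.47, 1.85 and 2.01 CPM at RT 6 h (log2FC = 1.95). Catalases, thioredoxins and glutathione peroxidase had log2FCs within 0.5 of 0 and were not called.

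Polyamine genes included falls and rises. Arginine decarboxylase (ADC) makes the precursor of putrescine, spermidine synthase adds an aminopropyl group to putrescine, and polyamine oxidases break polyamines down. ADC1A (LOC107774919) had 45.4, 49.4 and 50.8 CPM under HS and 133, 128 and 131 CPM at RT 6 h (log2FC = -1.42 ± 0.05, FDR = 3.90e-42). ADC1 (LOC107796783) had 86.9, 93.2 and 94.9 CPM under HS and 194, 191 and 183 CPM at RT 6 h (log2FC = -1.04), and the homolog of ADC2, LOC107759371, had 37.3, 37.4 and 40.4 CPM under HS and 111, 112 and 113 CPM at RT 6 h (log2FC = -1.54). The gene named ADC2 in tobacco (LOC107767963) was not called, with a log2FC of -0.99, 74.8, 86.7 and 81.3 CPM under HS and 164, 158 and 161 CPM at RT 6 h. The second route to putrescine, ornithine decarboxylase (ODC, LOC107815922), was not called and had a log2FC of 0.45. The homolog of the spermidine synthase SPDS3, LOC107764611, had 11.04, 8.67 and 9.46 CPM under HS and 1.07, 0.981 and 1.15 CPM at RT 6 h (log2FC = 3.16, FDR = 3.02e-33), and that of the polyamine oxidase PAO2, LOC107799822, had 32.8, 30.9 and 33.1 CPM under HS and 13.4, 14.3 and 15.2 CPM at RT 6 h (log2FC = 1.17). Of the whole list of polyamine and amino acid metabolism, 11 of 19 genes were tested, 0 were upregulated and 2 downregulated (median log2FC -0.16). The shares over all genes tested were 6.24% upregulated and 2.87% downregulated. The homologs of ADC2, SPDS3 and PAO2 come from tables of differentially expressed genes that the study chose on these samples, so they are not independent evidence.

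Sugar and inositol genes included a clear rise and clear falls. GolS1 (LOC107794006), whose enzyme makes galactinol for the raffinose sugars, had 121, 122 and 123 CPM under HS and 15.4, 17.4 and 16.9 CPM at RT 6 h (log2FC = 2.88 ± 0.06, FDR = 1.78e-61). The sucrose transporter SUT3 (LOC107814196) had 20.9, 20.5 and 20.7 CPM under HS and 45.8, 47.3 and 58.3 CPM at RT 6 h (log2FC = -1.29, FDR = 1.76e-30). These were the only 2 called of 13 tested in a list of 22 (median log2FC -0.07), where 9.11% of all genes tested were called. Myo-inositol oxygenase opens the inositol ring to glucuronate, a precursor of wall polysaccharides, and both MIOX2 homologs of the study's tables were downregulated, LOC107773293 with 0.352, 0.1301 and 0.174 CPM under HS and 1.67, 1.53 and 2.79 CPM at RT 6 h (log2FC = -3.29) and LOC107824234 with a level at least 6.92-fold lower under HS. A homolog of the inositol phosphate synthase MIPS3, LOC107759316, had 6.33, 6.77 and 6.86 CPM under HS and 17.5, 15.1 and 11.6 CPM at RT 6 h (log2FC = -1.14).

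Genes of lipid storage and of cell death from the same tables also moved. These tables name 74 tobacco genes, of which 38 were upregulated, 33 downregulated and 3 not called here, and since the study chose them on these samples this is no independent evidence of their direction. DGAT1 catalyses the last step of triacylglycerol synthesis, and 3 of its 5 homologs tested were upregulated from low levels, LOC107830919 with 1.83, 3.21 and 2.82 CPM under HS and 0.397, 0.291 and 0.446 CPM at RT 6 h (log2FC = 2.83), LOC107789692 (log2FC = 2.49) and LOC107775049 (log2FC = 2.29). The other 2 had log2FCs of -0.30 and 0.28. The homolog of the triacylglycerol lipase SDP1, LOC107786500, had 176, 207 and 206 CPM under HS and 98.8, 96.4 and 87.8 CPM at RT 6 h (log2FC = 1.06), and that of the lipid droplet protein LDAP1, LOC107804268, had 149, 134 and 147 CPM under HS and 66.6, 65.3 and 64.7 CPM at RT 6 h (log2FC = 1.13). Both were under the fold limit when libraries were scaled by their totals. Among oleosins, which coat lipid droplets, the OLE5 homolog LOC107821969 was at least 9.55-fold higher under HS, at 1.34, 0.867 and 1.04 CPM under HS and 0.0397, 0 and 0 CPM at RT 6 h, whereas the OLE8 homolog LOC107780677 had 4.85, 5.81 and 5.21 CPM under HS and 12.4, 11.3 and 14.5 CPM at RT 6 h (log2FC = -1.25). The same tables name 3 homologs of the phosphatase gene PEPC1 (AT1G17710), which acts on phosphoethanolamine and phosphocholine. These were upregulated with log2FCs of 2.34, 2.06 and 1.49. Because the tables hold genes that the study found to differ, homologs that did not change would be missing from them. Metacaspases are cysteine proteases with roles in cell death, and the same limit holds for their homologs. The tables name 3 homologs of MC1 (LOC107820447, LOC107820452 and LOC107819571), which were downregulated with log2FCs of -2.85, -2.67 and -1.99. A homolog of MC9 (LOC107805149) was downregulated as well, to a level at least 3.29-fold lower under HS. The MC1 homolog LOC107820452 had 0.703, 0.564 and 0.391 CPM under HS and 3.02, 2.69 and 4.502 CPM at RT 6 h, and LOC107819571, which stayed under 1 CPM throughout, lost its call without HS replicate 1 or 3. LOC107820447 overlaps another gene, and because reads were counted without regard to strand, the reads of overlapping genes cannot be told apart.

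No gene was called in 9 lists that each cover a part of tube growth, transport, primary metabolism or protein turnover. Called genes of sugar transport, of polyamine metabolism and of other transporters are given in other paragraphs. Of 14 cytoskeleton genes, 21 genes of RAB, ROP and phosphoinositide traffic, 21 of calcium and MAP kinase signalling, 11 of ion and water transport, 10 of glycolysis, fermentation and the citrate cycle, 16 translation factors, 9 ribosomal protein genes, 14 autophagy genes and 6 proteasome and ubiquitin genes that were tested, 0 were upregulated and 0 downregulated by edgeR. Over all genes tested, 9.11% were called. These 9 lists were grouped because none of their members was called, so their 0 cannot be weighed against that share. The medians of these 9 lists lay between -0.19 and 0.22, and their members between -0.95 and 0.94. Summed CPM was 10012 ± 240.0 under HS and 8948 ± 51.9 at RT 6 h for the cytoskeleton list and 911 ± 4.79 under HS and 847 ± 3.79 at RT 6 h for the traffic list (SD, n = 3 each). A count of 0 depends here on the fold limit: without TMM scaling 2 genes each of the calcium and the ion transport list were downregulated, without HS replicate 3 and without HS replicate 2 1 gene each of these lists was downregulated, and without HS replicate 1 1 translation factor was upregulated. At an unadjusted p under 0.05, 32 of the 122 members of the 9 lists were higher and 42 lower under HS, at any fold, and DESeq2 gave 0 calls for them. Of 9 pollen wall and pollen-specific genes tested, the arabinogalactan protein gene AGP2 (LOC107772822) and PELP (LOC107791848) were upregulated, with 3.45, 3.904 and 4.08 CPM under HS and 1.83, 1.199 and 1.82 CPM at RT 6 h for AGP2 (log2FC = 1.26) and a log2FC of 1.07 for PELP. The PELP call was lost without HS replicate 3, without RT 6 h replicate 2 and with libraries scaled by their totals. Of 8 hormone genes tested, the ethylene regulator EIL5 (LOC107798783) was upregulated by a log2FC of 1.01, at the limit, and lost its call when any library but HS replicate 2 was left out.

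**Figure D4:**
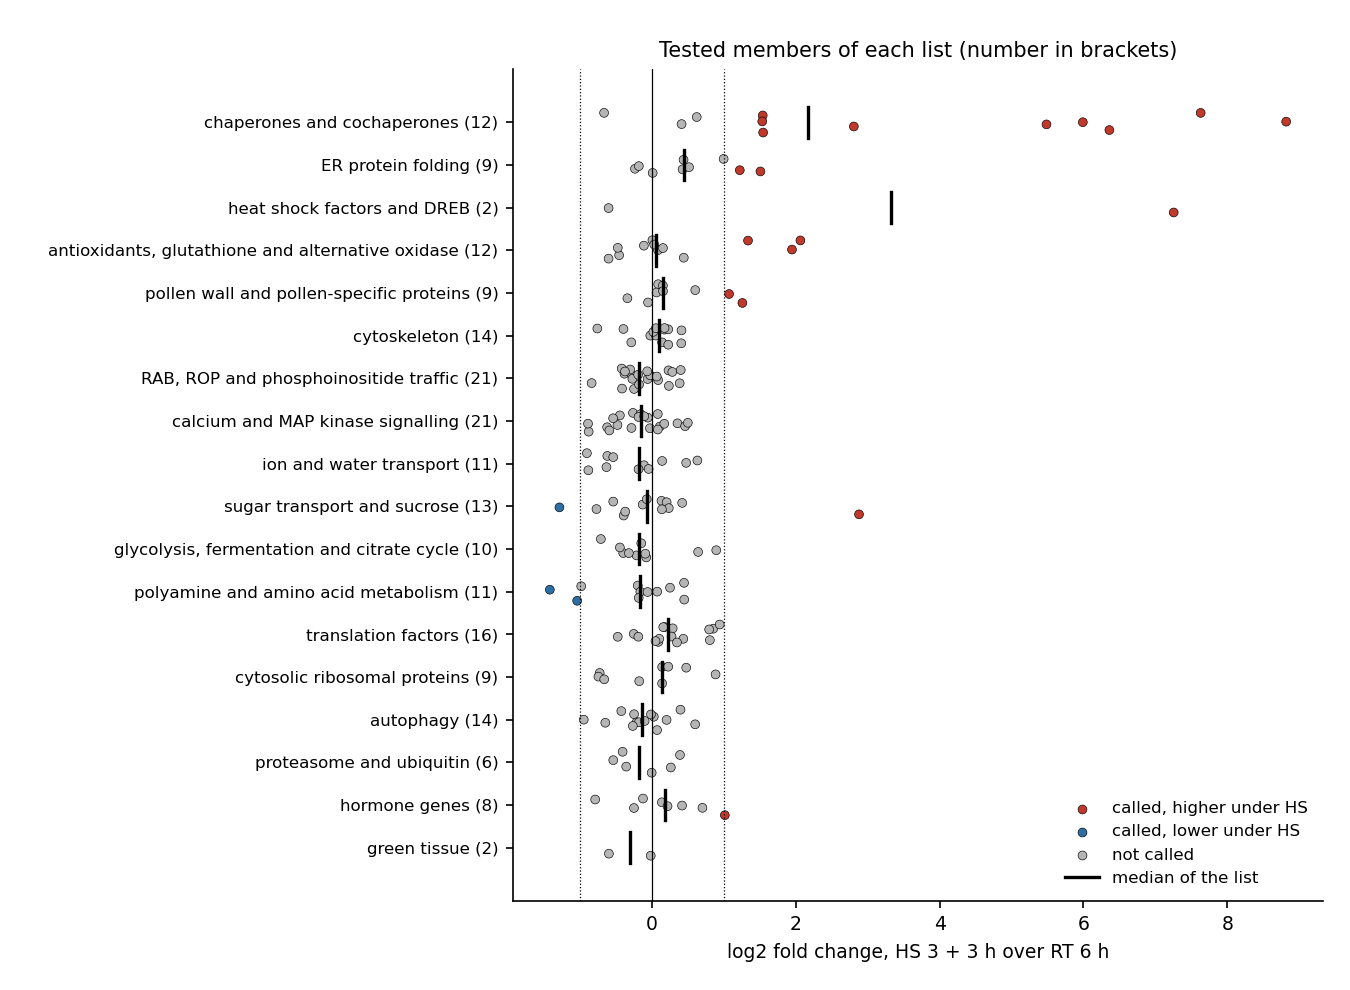
Log2 fold change of HS 3 + 3 h over RT 6 h for the tested members of each list of named tobacco genes, 1 point a gene, with upregulated genes in red, downregulated genes in blue and genes not called in grey. Values are fitted ones, also for genes at the floor, black bars are list medians and dotted lines the limits of 1 and -1, and the chaperone list, with a median of 2.18, lies apart from the lists of growth, transport and translation, whose medians stay between -0.19 and 0.22.

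Downregulated genes were fewer, mostly active at RT 6 h, and changed by smaller factors. Their median level was 1.14 CPM under HS and 2.90 CPM at RT 6 h, 69 of them fell past 4-fold by the fitted log2FC (64 with genes at the floor set at their bound), and 13 averaged over 100 CPM at RT 6 h. The largest loss in CPM was that of LOC107832494, with 574, 543 and 595 CPM under HS and 1359.9, 1389 and 1358 CPM at RT 6 h (log2FC = -1.26 ± 0.04, FDR = 1.54e-45). LOC107766430 had 47.5, 49.1 and 53.4 CPM under HS and 189, 190.1 and 192 CPM at RT 6 h (log2FC = -1.92, FDR = 1.19e-52). The homolog of the phosphate transporter PHT1;7, LOC107817830, had 158, 159 and 174 CPM under HS and 378, 351 and 342 CPM at RT 6 h (log2FC = -1.12). Replicates of these genes differed little, and the groups did not overlap. By fitted log2FC the largest fall was that of the homolog of BAP2, an inhibitor of cell death in Arabidopsis, LOC107799833, with 0, 0.0867 and 0.0434 CPM under HS and 1.19, 0.799 and 1.302 CPM at RT 6 h, which is at least 6.99-fold lower under HS (against a floor of 0.157 CPM).

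The 8 largest falls by log2FC had low values at RT 3 h as well. Since the RT 3 h libraries were no part of the comparison, their values are only set beside the others. LOC107821803 had 1.27, 1.04 and 0.912 CPM under HS, 14.6, 11.9 and 16.1 CPM at RT 6 h and 1.93, 1.27 and 1.51 CPM at RT 3 h. LOC107832826 had 0.492, 0.477 and 0.695 CPM under HS, 4.09, 5.12 and 3.91 CPM at RT 6 h and 0, 0 and 0.03501 CPM at RT 3 h. In both genes the RT 6 h libraries stood above the other 6, with those of HS close to RT 3 h for LOC107821803 and above RT 3 h for LOC107832826. Falls are meant against RT 6 h, and whether slower growth under HS plays a part was not tested. The 8 largest losses in CPM had another profile, for example LOC107766430, with 221, 219 and 209 CPM at RT 3 h, and LOC107832494, with 1184, 1197 and 1186 CPM at RT 3 h, both far above their values under HS.

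**Figure D5:**
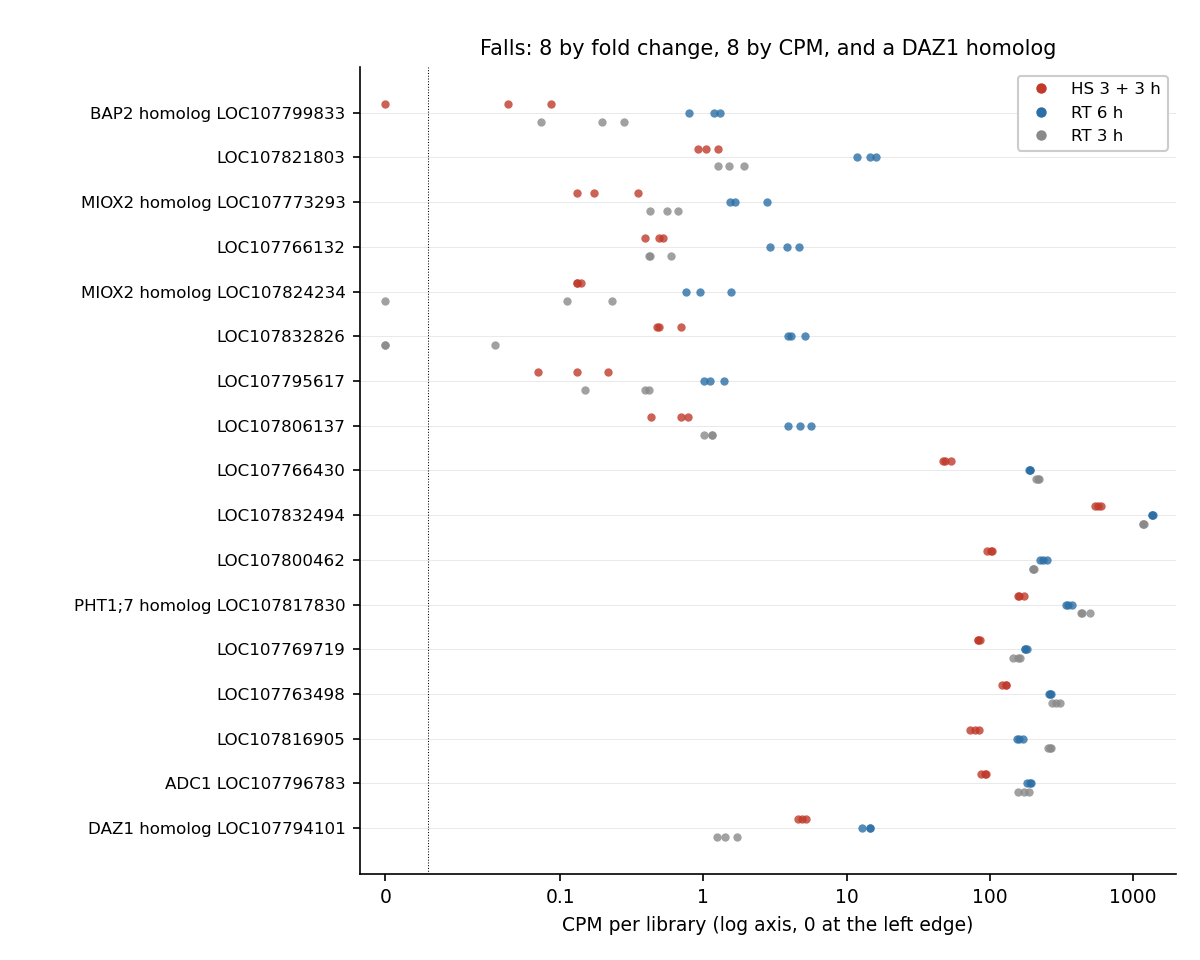
CPM in each library of HS 3 + 3 h (red), RT 6 h (blue) and RT 3 h (grey), from top to bottom within each row, for the 8 largest falls by log2FC, the 8 largest losses in CPM and a DAZ1 homolog, on a logarithmic axis with 0 left of the dotted line. In the upper 8 genes the blue points stand to the right of both other groups, and in the 8 genes below them blue and grey points both lie to the right of the red ones.

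Some homologs of sperm lineage genes were among the falls. These homologs were picked after their values were seen, and 2.87% of all genes tested were downregulated. DUO1 is the MYB factor that specifies the male germline in Arabidopsis, and DAZ1 and DAZ2 are zinc finger proteins that act downstream of it in germ cell division. The DAZ1 homolog LOC107794101, a gene of 1 exon block on TN90 scaffold NW_015923454.1 from 43464 to 44210, had 4.92, 4.55 and 5.21 CPM under HS and 14.5, 14.6 and 12.9 CPM at RT 6 h (log2FC = -1.52 ± 0.10, FDR = 1.03e-23), beside 1.41, 1.24 and 1.72 CPM at RT 3 h. Of 4 DUO1 homologs, LOC107810051 was downregulated, with 1.195, 0.954 and 1.04 CPM under HS and 1.95, 2.43 and 2.53 CPM at RT 6 h (log2FC = -1.14), and the other 3 were not called, with log2FCs between -0.48 and 0.31. None of the 4 DAZ2 homologs was called, and the lowest of them, LOC107795597, had a log2FC of -0.83. Separase, the protease that releases sister chromatids, belongs to cell division in general and not to this lineage alone. Of its 2 homologs, 1 was downregulated (LOC107828330, 2.32, 2.13 and 2.87 CPM under HS and 5.88, 7.08 and 7.18 CPM at RT 6 h, log2FC = -1.45).

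The copies of a gene were often not all called. Of 962 Arabidopsis genes with at least 2 tobacco homologs tested, 169 had at least 1 homolog called and 146 of these also had homologs that were not called, while all homologs were called in 23. Over all genes tested, 9.11% were called. A called and an uncalled copy can lie close together on either side of the fold limit, and whether copies differ was not tested. The homologs include those of the study's tables of differentially expressed genes, from which unchanged copies are missing. At least 2 homologs were called for 52 Arabidopsis genes, in 1 direction for 48 and in both directions for 4. One of the 4 was RAP2.12, an ethylene response factor that senses oxygen in Arabidopsis, with LOC107788512 at 5.56, 4.99 and 4.99 CPM under HS and 2.304, 1.78 and 1.67 CPM at RT 6 h (log2FC = 1.42) and LOC107764761 at 0.492, 0.173 and 0.347 CPM under HS and 0.795, 1.09 and 1.49 CPM at RT 6 h (log2FC = -1.82). For the bHLH gene AT4G37850, LOC107794341 was at least 5.52-fold higher under HS, with 0.703, 0.651 and 0.521 CPM under HS and 0, 0 and 0 CPM at RT 6 h, and LOC107805377 had a log2FC of -1.01. Near-identical copies can share reads, so values of single copies are uncertain where their sequences are alike.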

How the data were processed

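Pollen tube RNA was sequenced single-end, and per the labels and methods the authors made reads with bcl2fastq 2.17.1.14, aligned them to the TN90 tobacco genome with STAR 2.5.2a and deposited raw counts per gene from featureCounts 1.5.0-p1, without strand. The treatment of reads with several alignments is not given in the sources used here. Gene names came from the deposited annotation, from a RefSeq table of the K326 assembly ASM71507v2 (56627 of 74044 identifiers found) and from Arabidopsis homologs in the study's supplementary tables.

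From these counts, genes over 0.5 CPM in at least 2 of 6 libraries were tested with edgeR 4.0.16 (R 4.3.3, TMM scaling, quasi-likelihood test, FDR by Benjamini-Hochberg over all genes tested). Calls needed an absolute log2FC over 1 and an FDR of at most 0.005. Printed CPM use TMM-scaled library sizes. DESeq2 1.42.0 and 15 other settings were tried as alternatives. Tables were handled with Python 3.11.15 and pandas 2.3.3, and the fit was tested on simulated data.

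Named genes were the 8 largest rises and falls by log2FC with groups that did not overlap and at least 1 CPM in the higher group, the 8 largest gains and losses in CPM, called members of functional lists and genes with an Arabidopsis homolog in the study's tables. The members and lists were chosen with earlier results of these data known. Lists of product descriptions could not be applied, since the files give none, and lists of tobacco symbols replaced them. No promoter sequence was analysed here.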

Additional observations from a re-analysis of the deposited data

How the results depend on the processing

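In 16 alternatives, the number of upregulated genes stayed within 1.5 times 1438 in all but 2, a test against a log2FC of 1 (glmTreat, 694) and a filter that kept genes with 10 or more counts in each library (819). The number of downregulated genes was 143 with glmTreat, 435 with that filter and 1070 without TMM scaling, and otherwise within 1.5 times 661. Leaving out single libraries gave 1303 to 1400 upregulated and 603 to 669 downregulated genes. DESeq2 gave 1209 and 525, and all 9 libraries in one fit 1398 and 647. Of the lists, heat shock factors and DREB had 0 upregulated genes with the filter of 10 counts, and pollen genes 0 with glmTreat, 1 without TMM and 1 to 2 when single libraries were left out. Hormone genes had 0 with DESeq2, with glmTreat, without TMM and with the filter of 10 counts, 2 with no filter and 0 to 1 when single libraries were left out, and translation factors 0 to 1. Downregulated genes numbered 2 without TMM and 0 to 1 without single libraries in the calcium and in the ion transport list, and 1 with glmTreat in the polyamine list. The log2FC of ntp302 (LOC107773574) was -0.092 without TMM and 0.06 with it. Of the 319 called genes followed by name, 152 lost the call in at least 1 alternative, all of them with glmTreat, and 167 were called in every alternative that gave them a value. Of these 167, 91 had a value in all 16, and 76 had none in at least 1, including the filter of 10 counts for all 76. Where no cause follows from the setting itself (fewer genes tested, a stricter test), it was not tested. Between HS and RT 6 h libraries of the same replicate number, deviations from the group means correlated at -0.10, -0.01 and -0.05. Between those of unlike numbers the correlations ran from -0.07 to 0.10. With 3 libraries a group, such values can neither show nor exclude pairing. With the replicate number as a block, 1419 genes were upregulated and 645 downregulated. Depth limits genes near 0.5 CPM, which is 7.47 counts in HS replicate 1.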

Other observations

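Of 18 homologs of circadian clock genes tested, a group chosen after its values were seen, 11 were upregulated, 3 downregulated and 4 not called. Over all genes tested, 6.24% were upregulated and 2.87% downregulated. The group covers only homologs of LHY, RVE1, RVE3, RVE6, RVE7, PRR5 and ELF3, so its counts give no share for clock genes in general. In the study's family of pseudo-response regulators (Pseudo ARR-B), 1 of 5 genes tested was upregulated and 0 downregulated. All 3 homologs of RVE1, a MYB-like factor of the clock family, were upregulated, with log2FCs between 1.32 and 4.74, and LOC107806142 had 5.27, 4.08 and 5.297 CPM under HS and 0.397, 0.0726 and 0.0744 CPM at RT 6 h (FDR = 1.30e-27, edgeR). The homologs of RVE7 (LOC107812899), RVE3 (LOC107827724) and PRR5 (LOC107780646) had log2FCs of 3.23, 1.93 and 1.80, and both homologs of LHY, a morning clock factor, had log2FCs of 1.26 and 1.09. Of 4 homologs of RVE6, 2 were upregulated, with log2FCs of 2.32 and 2.68, and 2 were not called, with log2FCs of 0.34 and 0.36. ELF3, which acts in the evening complex of the clock and in temperature sensing in Arabidopsis, had homologs in both directions. LOC107830690 had 7.59, 6.46 and 7.51 CPM under HS and 2.62, 3.41 and 3.91 CPM at RT 6 h (log2FC = 1.101), LOC107785468, LOC107832158 and LOC107766207 had log2FCs between -1.65 and -1.43, and the other 2 were not called. Calls of LOC107786145, LOC107830690 and LOC107774404 were lost in 1 or more alternatives.

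Transport genes included falls in single copies. Of 8 homologs of the vacuolar proton pump AVP1, LOC107774827 and LOC107776628 were downregulated (log2FC = -1.07 and -1.42) and the other 6 had log2FCs between -0.32 and 0.36. Of 3 homologs of the nitrate transporter NRT1.5, LOC107822150 was upregulated (log2FC = 1.07) and LOC107768467 downregulated (log2FC = -1.16). Of 2 genes with links to hormone turnover, the homolog of the jasmonate oxidase JAO2, LOC107778746, was at least 195-fold higher under HS, with 25.03, 20.6 and 20.7 CPM under HS and 0.0397, 0 and 0 CPM at RT 6 h, and that of the auxin oxidase DAO1, LOC107795525, had a log2FC of 3.88.

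Upregulated genes lay next to each other on the TN90 scaffolds in 57 of 4712 pairs of adjacent tested genes. Of the neighbours of upregulated genes, 17.1% were upregulated too, where 6.24% of all genes tested were. For neighbours at least 1000 bases away this share was 13.2% and for closer or overlapping ones 23.97%. Of the 57 pairs, 7 overlap, and reads counted without strand cannot separate overlapping genes. The chaperone gene HSP70-3 (LOC107766295) and LOC107766296, which lie on opposite strands with a gap of 598 bases, form a pair that does not overlap, with 1.05, 0.998 and 0.564 CPM under HS and 0.358, 0.3995 and 0.223 CPM at RT 6 h for the second gene. Both genes run towards each other, and HSP70-3 averaged 88.1 CPM under HS. Whether its transcripts extend into the second gene was not tested. Adjacent genes can be copies of one another, and whether they are was not tested.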
